A study of Homo sapiens with 16 samples.

Results

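The *HOX* genes were described here by cluster and by position in all libraries of 2 human AML cell lines. They encode homeodomain transcription factors that set positional identity along the embryonic body axis, and they lie in the clusters A, B, C and D, within which the genes are numbered in the order of their positions. In blood, genes of the A and B clusters are active in stem and progenitor cells and are silenced as cells mature. High *HOXA9* together with its cofactor *MEIS1* is a known feature of several AML subtypes, whereas AML with the translocation t(8;21) is known for low *HOXA* levels, and *NUP98* fusions with *HOXA9* or *HOXD13* cause AML. The members were all genes named HOX with a cluster letter and a number, 39 of the 60357 genes in the count tables, and comprised 11 *HOXA*, 10 *HOXB*, 9 *HOXC* and 9 *HOXD* genes.

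The RNA was taken from 2 established AML lines, Kasumi-1 and SKNO-1, which both carry t(8;21) and express its fusion product RUNX1/ETO. SKNO-1 was kept in GM-CSF. Cells were treated with lipid nanoparticles (LNPs) at 2 µg/ml for 24 h and harvested on day 3. The LNPs held either siRE-mod, a chemically modified siRNA directed against the fusion site, or siMM-mod, its mismatch control. Each line had 3 libraries labelled siMM-mod and 3 labelled siRE-mod, 12 in all, with 60559466 to 147990959 counts on genes. The sources do not say whether the 3 libraries of a group came from separate cultures, so that p-values measure only the spread between these libraries.

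The libraries were first checked for the targeted transcript. *RUNX1T1* (ETO) is the 3′ partner of the fusion and makes up most of its transcript. It was 92.9 to 297 normalized CPM in the libraries labelled Kasumi-1 siMM-mod and 37.3 to 159 in those labelled Kasumi-1 siRE-mod. In the libraries labelled SKNO-1, it was 127 to 329 with siMM-mod and 40.4 to 165 with siRE-mod. The labelled groups thus overlapped in both lines, and *RUNX1T1* goes against the label in some libraries. The stem cell antigen gene *CD34* split the libraries across the labels as well. It was 117 to 421 normalized CPM in 6 libraries, namely all 3 labelled SKNO-1 siMM-mod, the library labelled SKNO-1 siRE-mod 1 and the libraries labelled Kasumi-1 siMM-mod 1 and 2. It was 0.108 to 0.627 in the other 6, in which *IL5RA*, the gene of the interleukin-5 receptor alpha chain, was 36.3 to 68.0, against at most 0.179 in the libraries with *CD34*. Among the 6 CD34-expressing libraries, *RUNX1T1* was 297 to 329 in those labelled SKNO-1 siMM-mod 1, SKNO-1 siMM-mod 2 and Kasumi-1 siMM-mod 1. It was 92.9 to 127 in those labelled SKNO-1 siMM-mod 3, SKNO-1 siRE-mod 1 and Kasumi-1 siMM-mod 2. Labels were kept as given. The reading by *CD34* and then by *RUNX1T1* is a description without a test. The myeloid markers *MPO*, *KIT*, *PTPRC*, *CD33* and *SPI1* were present in every library. Without overlap, *MPO* and *KIT* were higher in the CD34-expressing libraries and *PTPRC* was lower. Of the 15863 genes with at least 600 counts, 15.6% were higher and 17.5% lower without overlap. *MPO* was 10437 to 22667 normalized CPM in the CD34-expressing libraries and 1783 to 5750 in the others, *KIT* 682 to 999 against 97.0 to 516 and *PTPRC* 67.8 to 80.2 against 185 to 441, and their part in the *HOX* levels was not tested. For the other cell types, *CD79A* of B cells was 0.909 to 2.91 normalized CPM over all 12, and the summed markers of T cells, erythroid cells and fibroblasts reached at most 0.535 normalized CPM.

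**Figure D1:**
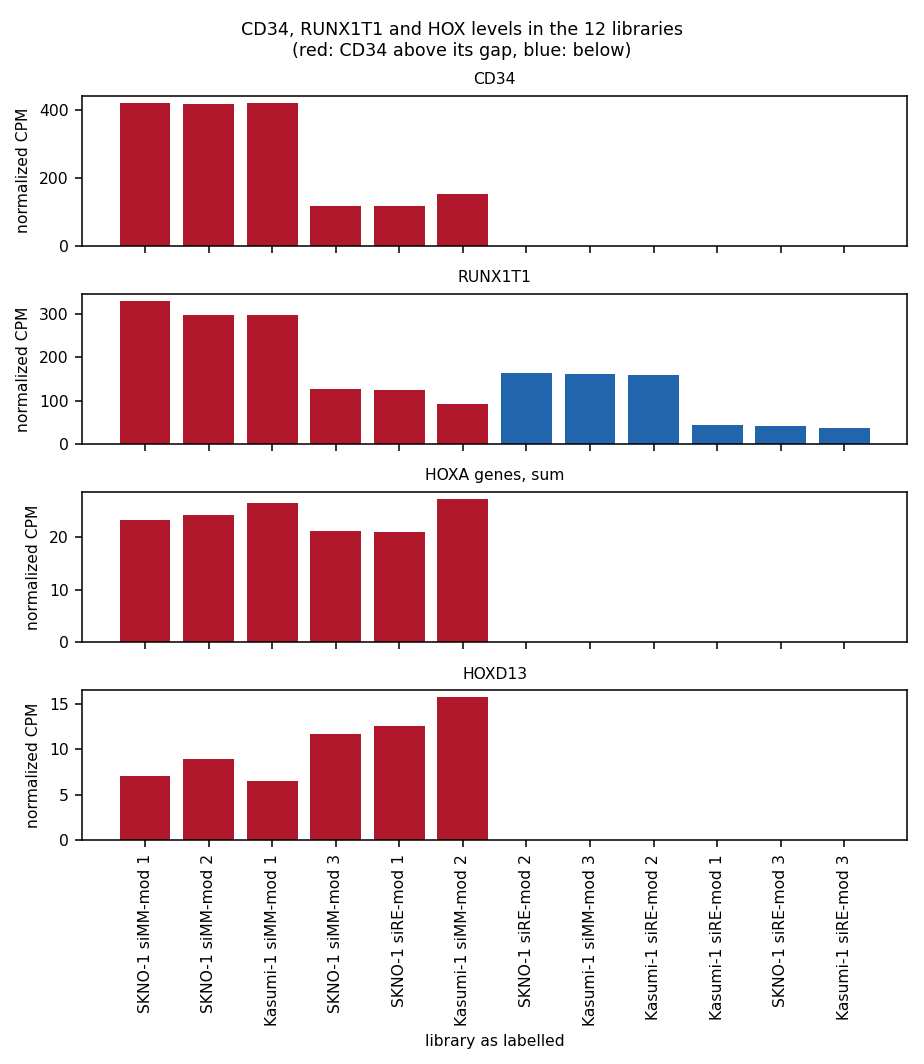
Normalized CPM (vertical axes, linear) of *CD34*, *RUNX1T1*, the sum of the 11 *HOXA* genes and *HOXD13* in each of the 12 libraries as labelled, red for the 6 CD34-expressing libraries and blue for the other 6. The *HOXA* sum and *HOXD13* have visible bars only in the red libraries, where the *HOXA* sum is 20.9 to 27.1.

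Normalized CPM are the counts scaled to library size with TMM factors over the 12 libraries. In this unit, 1 count equalled 0.00652 to 0.0157, and 3 counts, taken as the upper limit that a count of 0 allows, equalled 0.0196 to 0.0470. These limits cover counting error only.

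The 39 genes fell into a small detected set and a large silent one. All 11 *HOXA* genes and *HOXD13* had counts in each of the 6 CD34-expressing libraries. In the other 6 libraries the *HOXA* genes together had 14 counts, 9 of them on *HOXA11*, and *HOXD13* had 0. The sum over all 39 genes was 2087 to 3371 counts in the CD34-expressing libraries and 2 to 5 counts in the others. The remaining 27 genes had 34 counts in all 12 libraries together, and 20 of them were listed at 0 throughout. In bulk RNA, fewer cells that express a gene and less RNA per cell cannot be told apart.

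**Figure D2:**
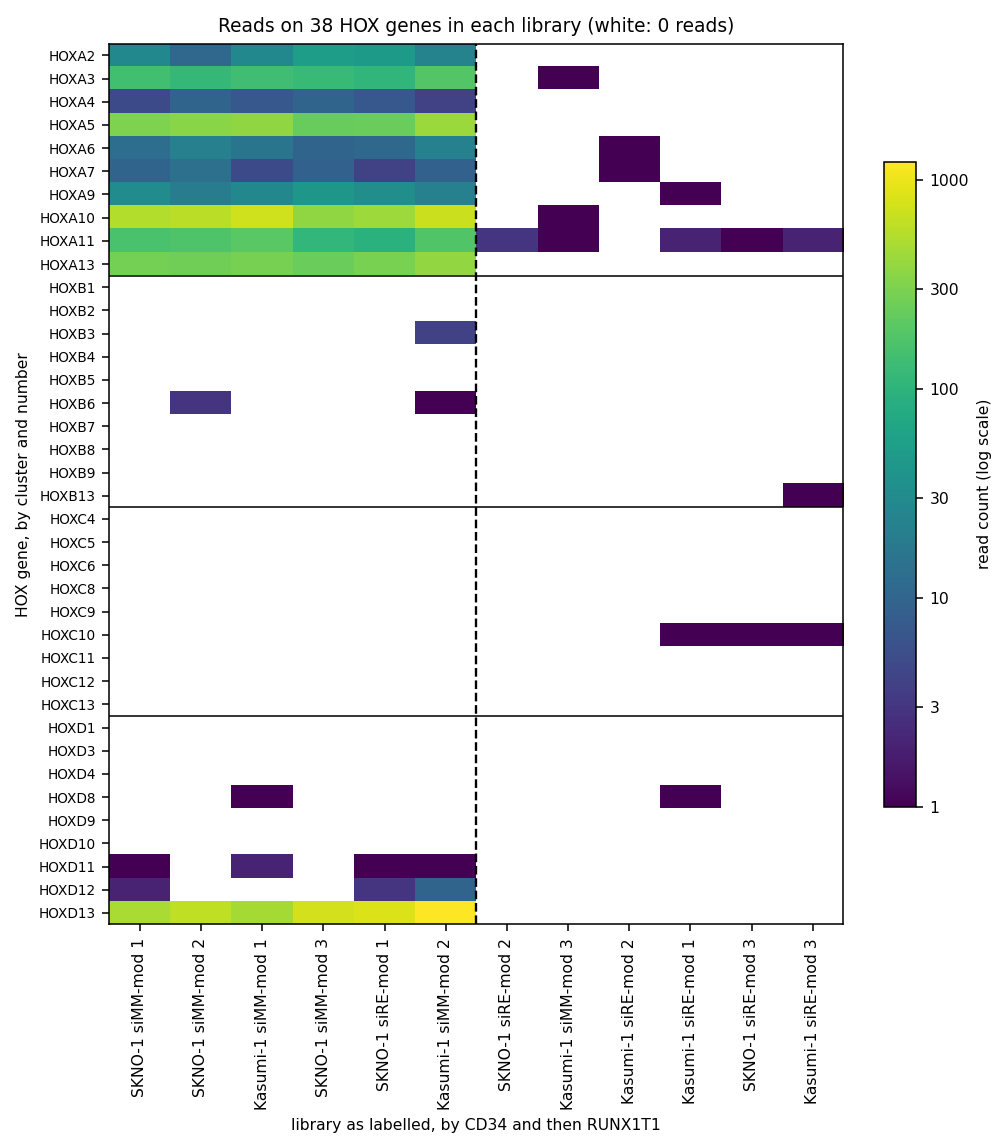
Read counts (colour, log scale, white for 0) of 38 *HOX* genes (rows, by cluster and number) in the 12 libraries (columns, as labelled, ordered by *CD34* and then *RUNX1T1*, with the dashed line between the 6 CD34-expressing and the other 6 libraries). All *HOXA* genes shown and *HOXD13* are filled in every column left of the line, while no gene exceeds 3 counts to the right of it.

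Promoter windows of the detected genes and of a silent neighbour are shown because the data separate genes that lie side by side. *HOXD13* and *HOXA13* are the last genes at the 5′ ends of their clusters, *HOXA10* had the most counts in cluster A and is given at both of its listed starts, and *HOXD12* is the neighbour of *HOXD13* with at most 10 counts in a library. The windows run from 250 bases before to 50 bases after a transcript start, come from RefSeq (GRCh38.p14) and are written 5′ to 3′ on the strand of the gene. Capitals mark the letters TATAAA on either strand, where overlapping matches form a longer run.
HOXD13, chr2:176092471-176092770, plus strand: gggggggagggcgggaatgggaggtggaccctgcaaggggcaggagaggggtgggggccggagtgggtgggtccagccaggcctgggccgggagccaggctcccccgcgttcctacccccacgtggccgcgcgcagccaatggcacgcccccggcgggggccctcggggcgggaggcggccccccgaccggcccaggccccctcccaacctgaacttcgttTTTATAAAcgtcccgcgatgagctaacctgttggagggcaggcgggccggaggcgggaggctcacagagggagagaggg
HOXD12, chr2:176099545-176099844, plus strand: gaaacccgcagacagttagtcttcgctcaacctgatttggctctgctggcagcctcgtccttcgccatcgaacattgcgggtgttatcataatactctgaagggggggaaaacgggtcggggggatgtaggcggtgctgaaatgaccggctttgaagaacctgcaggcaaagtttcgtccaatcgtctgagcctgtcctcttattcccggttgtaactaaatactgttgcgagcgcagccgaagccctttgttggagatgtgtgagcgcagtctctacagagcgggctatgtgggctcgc
HOXA13, chr7:27200042-27200341, minus strand: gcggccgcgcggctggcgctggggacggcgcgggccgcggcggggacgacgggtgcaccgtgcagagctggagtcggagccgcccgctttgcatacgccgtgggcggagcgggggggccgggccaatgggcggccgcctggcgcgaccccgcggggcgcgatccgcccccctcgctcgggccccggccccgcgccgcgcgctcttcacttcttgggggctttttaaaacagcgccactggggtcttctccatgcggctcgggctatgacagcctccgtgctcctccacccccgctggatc
HOXA10, chr7:27179812-27180111, minus strand: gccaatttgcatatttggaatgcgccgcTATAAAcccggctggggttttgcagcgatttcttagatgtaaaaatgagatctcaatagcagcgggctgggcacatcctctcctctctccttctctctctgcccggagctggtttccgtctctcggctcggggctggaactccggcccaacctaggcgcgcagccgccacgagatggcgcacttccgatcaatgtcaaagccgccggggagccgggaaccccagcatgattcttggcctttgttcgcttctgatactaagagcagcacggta
HOXA10, chr7:27174271-27174570, minus strand: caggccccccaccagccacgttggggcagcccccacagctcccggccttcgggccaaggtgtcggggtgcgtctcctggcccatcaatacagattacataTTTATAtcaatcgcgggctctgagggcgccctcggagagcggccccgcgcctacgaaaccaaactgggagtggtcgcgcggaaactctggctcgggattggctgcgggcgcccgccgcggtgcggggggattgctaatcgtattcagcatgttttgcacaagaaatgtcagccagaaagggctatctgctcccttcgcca

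The *HOXD13* window held TATAAA on both strands, in overlapping matches that began 27 and 29 bases before the transcript start. The *HOXA10* windows held it 222 and 150 bases before their starts, and those of *HOXA13* and *HOXD12* did not hold it. RefSeq windows were matched for 20 of the 39 genes, 26 distinct windows in all, since *HOXC4* and *HOXC5* share 1. TATAAA was found in 19.2% of these and in 11.6% of the 34943 distinct windows of all genes. The RUNX letters TGTGGT or TGCGGT, searched on both strands as the core bound by RUNX1 and RUNX1/ETO, were found in 15.4% of the *HOX* windows and in 19.6% of all windows, and none of the windows printed here held them. The *HOX* windows had a median of 22.5 CpG dinucleotides, against 14 over all windows, at a similar GC content of 58.0% and 58.7%. These matches are descriptions of the letters and not sites.

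*HOXD13*, which patterns the digits and the urogenital tract, had the highest median level per length of the members over the CD34-expressing libraries. It was above *HOXA5* in 5 of 6, and in the library labelled Kasumi-1 siMM-mod 1 *HOXA5* was higher, at 3.01 against 2.68 normalized CPM per kb of exon. In the CD34-expressing libraries with higher *RUNX1T1*, it had 477 counts (6.48 normalized CPM) in the library labelled Kasumi-1 siMM-mod 1, 496 (7.09) in SKNO-1 siMM-mod 1 and 620 (8.96) in SKNO-1 siMM-mod 2. In those with lower *RUNX1T1*, it had 745 counts (11.7 normalized CPM) in the library labelled SKNO-1 siMM-mod 3, 842 (12.5) in SKNO-1 siRE-mod 1 and 1228 (15.7) in Kasumi-1 siMM-mod 2. All 6 other libraries had 0 counts. The lowest CD34-expressing library was thus at least 199-fold above the highest limit of the libraries at 0. Within the CD34-expressing libraries, the 3 with lower *RUNX1T1* were all higher than the 3 with higher *RUNX1T1*, and *HOXD13* took 35.7% to 37.4% of all *HOX* counts in them against 19.7% to 27.1% in the others. The 3 libraries with lower *RUNX1T1* also had lower *CD34*, at 117 to 153 against 417 to 421 normalized CPM. Which of these differences goes with *HOXD13* was not tested.

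The neighbours of *HOXD13* were almost silent. *HOXD12*, which begins within a few kilobases of it on chromosome 2, had 10 counts in the library labelled Kasumi-1 siMM-mod 2, 3 in SKNO-1 siRE-mod 1, 2 in SKNO-1 siMM-mod 1 and 0 in the other libraries. *HOXD11* had 1 or 2 counts in 4 of the CD34-expressing libraries and 0 elsewhere. *HOXD8* had 2 counts in all, and *HOXD1*, *HOXD3*, *HOXD4*, *HOXD9* and *HOXD10* were listed at 0 in all 12 libraries. Detection in cluster D was therefore confined, in these libraries and beyond 10 counts, to its gene at the 5′ end. *HOXD13* lies at 176092721 to 176095944 of chromosome 2 in the annotation of the count tables (GRCh38), and no other gene shares its exons.

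Cluster A was detected over its whole length on chromosome 7, at uneven levels. *HOXA10*, a gene of uterine patterning and of myeloid and lymphoid progenitors, had the most counts. It was 10.1 normalized CPM in the library labelled Kasumi-1 siMM-mod 1, 8.78 in Kasumi-1 siMM-mod 2, 7.70, 8.60 and 5.94 in SKNO-1 siMM-mod 1, 2 and 3, and 6.47 in SKNO-1 siRE-mod 1. A single count was found in the library labelled Kasumi-1 siMM-mod 3 and 0 in the 5 others. The 6 CD34-expressing libraries thus lay within 1.70-fold of each other.

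*HOXA5*, needed for the development of the respiratory tract, was 5.17 and 5.35 normalized CPM in the libraries labelled Kasumi-1 siMM-mod 1 and 2, 4.39, 4.96 and 3.70 in SKNO-1 siMM-mod 1, 2 and 3, and 3.59 in SKNO-1 siRE-mod 1. *HOXA13*, mutated in hand-foot-genital syndrome, was 3.90 and 5.01 in the libraries labelled Kasumi-1 siMM-mod 1 and 2, 3.97, 3.77 and 3.79 in SKNO-1 siMM-mod 1, 2 and 3, and 4.35 in SKNO-1 siRE-mod 1. Both genes had 0 counts in the other 6 libraries, so that the lowest CD34-expressing library was at least 110-fold (*HOXA5*) and 116-fold (*HOXA13*) above their limit. *HOXA5*, *HOXA10* and *HOXA13* together held 63.9% to 72.6% of the *HOXA* counts of a CD34-expressing library.

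*HOXA11*, mutated in a syndrome of radioulnar synostosis and low platelets, was 2.68 and 2.25 normalized CPM in the libraries labelled Kasumi-1 siMM-mod 1 and 2, 2.27, 2.52 and 1.72 in SKNO-1 siMM-mod 1, 2 and 3, and 1.40 in SKNO-1 siRE-mod 1. It was the one member with counts in most of the other libraries, with 1 to 3 counts in 5 of these 6. *HOXA3*, a gene of pharyngeal and thymus development, was 1.87 and 2.32 in the libraries labelled Kasumi-1 siMM-mod 1 and 2, 2.03, 1.66 and 1.94 in SKNO-1 siMM-mod 1, 2 and 3, and 1.62 in SKNO-1 siRE-mod 1, with 1 count in Kasumi-1 siMM-mod 3 and 0 elsewhere. All 6 CD34-expressing libraries were above all others for both genes.

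*HOXA2*, *HOXA4*, *HOXA6*, *HOXA7* and *HOXA9* were low. *HOXA9*, the member best known for driving other AML subtypes, had 20 to 43 counts (0.281 to 0.674 normalized CPM) in the CD34-expressing libraries and 1 count in all others together. *HOXA2* had 11 to 53 counts, the widest spread of the detected members (5.23-fold in normalized CPM), and *HOXA6* 10 to 23. *HOXA7* had 4 to 14 counts and *HOXA4* 4 to 10. The sources do not say whether reads were counted by strand, and *HOXA4* and *HOXA7* share much of their exon length with other annotated genes, since 52.7% and 37.5% of their exon bases belong to them alone. For *HOXA9*, *HOXA10* and *HOXA11* this share was 73.0%, 73.8% and 68.9%. It was 98.3% for *HOXA13* and 100% for *HOXA5*.

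Levels were compared between genes as normalized CPM per kb of exon. By the median over the 6 CD34-expressing libraries, the order of the genes named here was *HOXD13* (4.27), *HOXA5* (2.72), *HOXA10* (2.19), *HOXA11* (0.979), *HOXA13* (0.776), *HOXA3* (0.443), *HOXA2* (0.167), *HOXA6* (0.157), *HOXA9* (0.136), *HOXA4* (0.0571) and *HOXA7* (0.0531). The ranges of the first 3 genes overlapped from each to the next, although *HOXA5* was above *HOXA10* in all 6 libraries. The length includes exon bases shared with other genes, and the sources do not say how reads on these were assigned. Unshared bases made up 100% of *HOXA5* and 73.8% of *HOXA10*, so their order may depend on the length used. *HOXA10* did not overlap with *HOXA11*. The ranges of *HOXA11* and *HOXA13* overlapped, and so did those of *HOXA2*, *HOXA6* and *HOXA9*, and those of *HOXA4* and *HOXA7*. The levels along the cluster thus had a peak at *HOXA5* and a second one at *HOXA10*, with *HOXA6*, *HOXA7* and *HOXA9* between them at 0.0247 to 0.247 per kb. Unshared bases made up 59.9%, 37.5% and 73.0% of these 3 genes, so the depth of the dip may also depend on the length used.

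**Figure D3:**
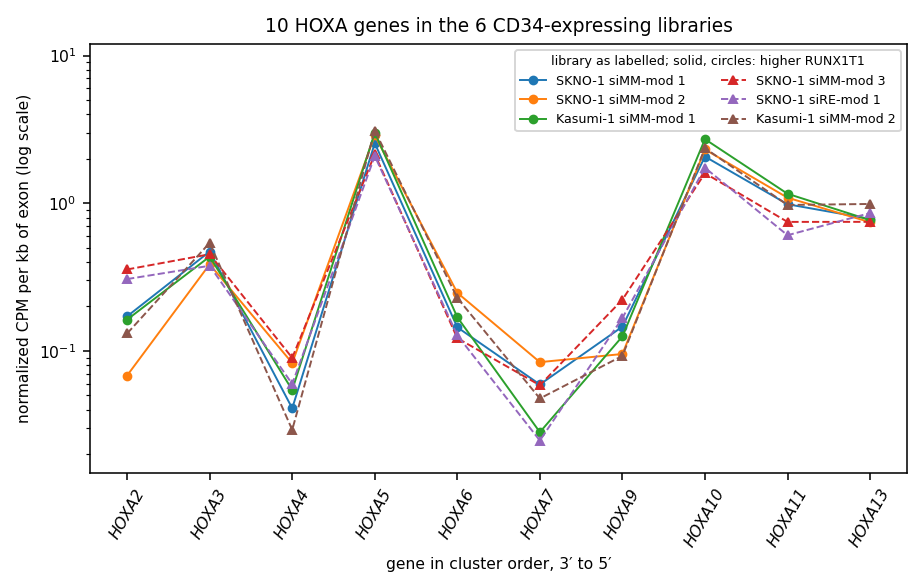
Normalized CPM per kb of exon (vertical axis, log scale) of 10 *HOXA* genes in cluster order from *HOXA2* towards the 5′ end (*HOXA13*), 1 line for each of the 6 CD34-expressing libraries as labelled, solid with circles for the 3 with higher *RUNX1T1* and dashed with triangles for the 3 with lower *RUNX1T1*. All 6 lines peak at *HOXA5* (2.09 to 3.11) and again at *HOXA10*, and 5 of them are lowest at *HOXA4* or *HOXA7*, whereas that of SKNO-1 siMM-mod 2 is lowest at *HOXA2* (0.0682).

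Clusters B and C were silent. In cluster B, 7 of 10 genes were listed at 0 in all 12 libraries, *HOXB3* and *HOXB6* had 4 counts each in all and *HOXB13* had 1. In cluster C, 8 of 9 genes were listed at 0 and *HOXC10* had 3 counts, at most 1 in a library. By paralog number, the 4 genes of group 13 showed the widest difference between clusters, since *HOXA13* and *HOXD13* had 242 to 1228 counts in each CD34-expressing library, *HOXB13* had 1 count in all and *HOXC13* was at 0. In groups 2 to 7 and 9 to 11, the *HOXA* gene was the 1 member with counts in all CD34-expressing libraries, and no gene of groups 8 and 12, which have no *HOXA* member, had counts in all of them.

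For a reading over all genes, those with at least 600 counts over the 12 libraries were kept (15863 genes). Of the members, 7 passed, among them *HOXA3*, *HOXA5*, *HOXA10*, *HOXA11*, *HOXA13* and *HOXD13*. They passed on the counts of the CD34-expressing libraries alone and so had to differ. All 7 were higher in the CD34-expressing libraries without overlap, where 15.6% of the 15863 genes were higher and 17.5% lower. With deposited CPM in place of the TMM scale, these shares were 11.3% and 21.6%. Without a filter except at least 1 count, 12 of 19 members were higher without overlap and 9.99% of 41212 genes. Between the CD34-expressing libraries with lower and with higher *RUNX1T1*, 2 of the 7 members (*HOXD13* among them) were higher without overlap where *RUNX1T1* was lower and 1 (*HOXA11*) where it was higher. Over all genes these shares were 18.1% and 20.1%, so the counts of members are near the background. In deposited CPM *HOXA13* joined the former. *EPCAM*, an epithelial antigen gene, moved with the *HOXA* genes, at 77.6 to 104 normalized CPM in the CD34-expressing libraries and at most 0.0108 in the others, while the epithelial genes *KRT19* and *CDH1* reached at most 0.0157. Its part in the result was not tested.

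The comparison of the design was that of siRE-mod with siMM-mod as labelled. For Kasumi-1, 13608 genes were tested with the quasi-likelihood test of edgeR, and 0% were called at an adjusted p under 0.05. An unadjusted p under 0.05 was found for 2435 genes, and DESeq2 called 1163 (8.55%). Of the members, *HOXD13*, *HOXA10*, *HOXA5* and *HOXA13* were tested. All 4 had 0 counts in the 3 libraries labelled siRE-mod but also at most 1 in the library labelled siMM-mod 3, so that 1 library of 1 group lay with the other group. *HOXD13* was 7.38 ± 7.87 normalized CPM (SD, n = 3) in the libraries labelled siMM-mod and 0 in those labelled siRE-mod, and *HOXA10* was 6.30 ± 5.48 against 0. Against 3 counts over the 3 libraries at 0, the mean of the libraries labelled siMM-mod was at least 853-fold higher for *HOXD13*, 728-fold for *HOXA10*, 405-fold for *HOXA5* and 343-fold for *HOXA13*. Without the library labelled siMM-mod 1, these bounds were 905-fold, 508-fold, 309-fold and 290-fold. Without siMM-mod 2 they were 374-fold, 584-fold, 299-fold and 225-fold, and without siMM-mod 3 they were 1279-fold, 1091-fold, 608-fold and 515-fold. By edgeR the adjusted p was 0.255 for *HOXD13*, *HOXA5* and *HOXA13* and 0.253 for *HOXA10*, none of which was called although all 4 unadjusted p lay between 0.0249 and 0.0328. DESeq2 called 3 of the 4, *HOXD13*, *HOXA10* and *HOXA5*, lower in siRE-mod. Without the library labelled siMM-mod 3, edgeR called 4250 genes (32.2%) and all 4 members lower. Both in the fit of all libraries labelled Kasumi-1 and in that without siMM-mod 3, the 4 members passed the filter on siMM-mod 1 and 2. They had at most 1 count in siMM-mod 3 and 0 in siRE-mod. The 4 members therefore had to be lower in siRE-mod, and none of these calls, p-values or bounds gives support.

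**Figure D4:**
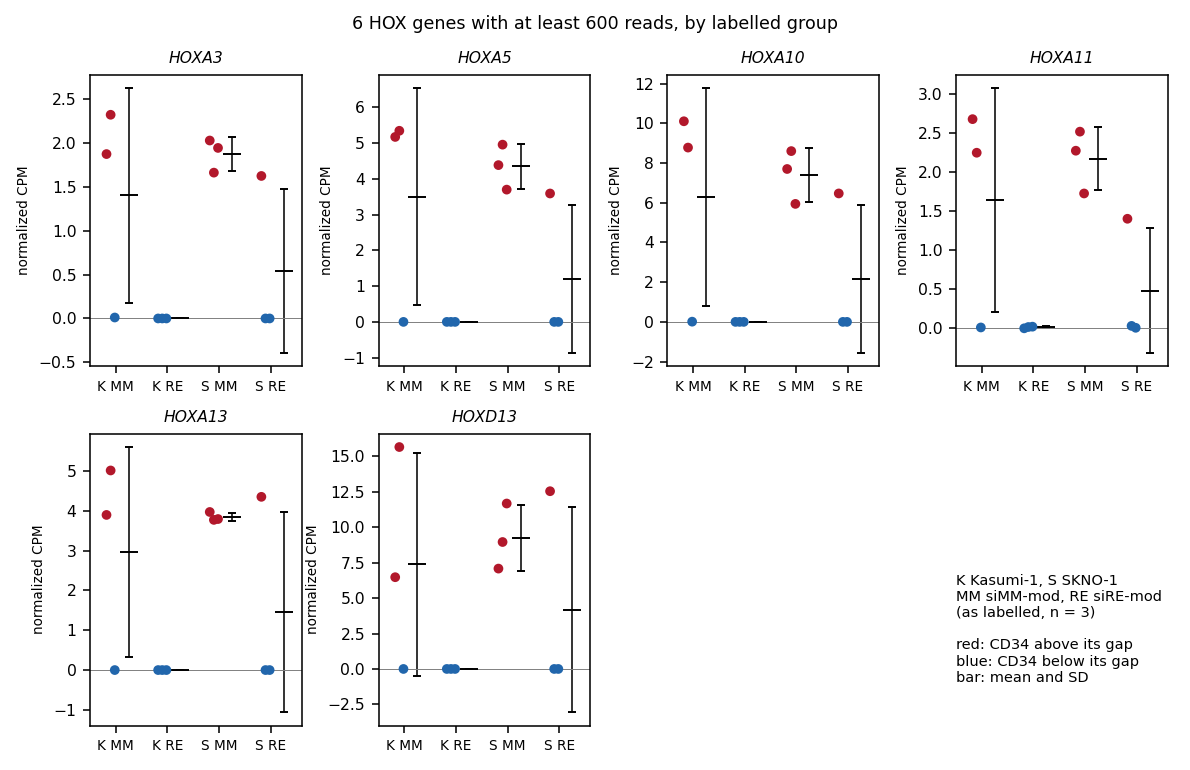
Normalized CPM (vertical axes, linear) of 6 *HOX* genes with at least 600 counts in the labelled groups (K Kasumi-1, S SKNO-1, MM siMM-mod, RE siRE-mod), with 1 point per library, red for CD34-expressing and blue for the others, and the mean with its SD (n = 3) beside them. In each panel 1 blue point of Kasumi-1 siMM-mod lies at or near 0 with the 3 of Kasumi-1 siRE-mod, and 1 red point of SKNO-1 siRE-mod lies near the 3 of SKNO-1 siMM-mod.

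For SKNO-1 as labelled, 13628 genes were tested, and 0% were called by edgeR, with an unadjusted p under 0.05 for 1455 genes and 372 calls by DESeq2. *HOXD13* was 9.24 ± 2.31 normalized CPM (SD, n = 3) in the libraries labelled siMM-mod. Those labelled siRE-mod had 12.5 in the library siRE-mod 1 and 0 in the other two, and *HOXA10* had 6.47 there against 7.41 ± 1.35 (SD, n = 3) in siMM-mod. The log2 fold change by edgeR was −1.13 (SE 2.28, adjusted p = 0.887) for *HOXD13* and −1.76 (SE 2.22, adjusted p = 0.798) for *HOXA10*. *HOXA5* (−1.85, adjusted p = 0.779) and *HOXA13* (−1.39, adjusted p = 0.842) did not pass either, and DESeq2 called neither of the 2 to which it gave an adjusted p (*HOXD13* and *HOXA5*). With the replicate number as a block, the median log2 fold change of the 4 was −7.47 and not −1.58, still with 0 called. Without the library labelled siRE-mod 1 it was −12.03, and edgeR called 2535 genes (19.3%) and all 4 members lower. In that fit the 4 members passed the filter on the libraries labelled siMM-mod alone and so had to be lower.

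The difference of the siRNA effect between the lines was tested as an interaction over the 12 libraries. edgeR called 0% of 15863 genes, with an unadjusted p under 0.05 for 106, and none of the 7 members, whose log2 differences (SKNO-1 minus Kasumi-1) were 4.75 to 11.27 with an adjusted p of 1.00 each. DESeq2 called 127 genes (0.801%), 6 members among them, with a median log2 difference of 22.2 over the 7 members. All 7 passed the filter on the counts of the CD34-expressing libraries alone. Of these libraries, only SKNO-1 siRE-mod 1 is labelled siRE-mod, so the calls of members give no support. The log2 differences rest on the library labelled SKNO-1 siRE-mod 1, since the edgeR median over the members was 9.47 with it and −0.33 without it. With the replicate number as a block the median was 4.33. Between SKNO-1 and Kasumi-1 as labelled, edgeR likewise called 0% of 15863 genes, with an unadjusted p under 0.05 for 2050 and 272 calls by DESeq2. The log2 differences of the members (SKNO-1 minus Kasumi-1) were 2.29 to 3.98, with adjusted p of 0.446 to 0.486. Their median was 3.23, against 0.35 with SKNO-1 siRE-mod 1 left out and 5.41 by DESeq2, which called none of the 3 members to which it gave an adjusted p.

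HOX proteins bind DNA with partners of the PBX, MEIS and PKNOX families, which were read on the same libraries. Of 9 such genes, 4 had at least 600 counts. *PBX2* was the highest, at 119 to 173 normalized CPM in the CD34-expressing libraries and 72.9 to 89.1 in the others. *MEIS2* was lower in the CD34-expressing libraries, at 23.6 to 29.2 against 60.4 to 67.9. *PKNOX1* overlapped between 17.9 to 21.8 and 21.5 to 27.3. *PBX4* was 1.08 to 2.14 against 0.307 to 0.471. *MEIS1*, the partner best known in AML with high *HOXA9*, had 29 counts in all and at most 0.179 normalized CPM, and *PBX3* reached at most 0.355. The detected *HOXA* genes and *HOXD13* thus stood beside *PBX2*, *MEIS2* and *PKNOX1* and with almost no *MEIS1* counts. Of these, *MEIS2* was higher in the libraries in which the *HOX* genes were almost silent. As labelled, *PBX2*, *MEIS2* and *PKNOX1* were tested in each line, and neither edgeR nor DESeq2 called any of them. *PBX2* had a log2 fold change of −0.79 (edgeR, SE 0.26, adjusted p = 0.253) in Kasumi-1 and −0.71 (SE 0.25, adjusted p = 0.466) in SKNO-1, and *MEIS2* one of 0.86 (SE 0.37, adjusted p = 0.296) and 1.03 (SE 0.32, adjusted p = 0.466).

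The noncoding RNAs of the clusters had the same division between A and the rest. Of 18, 9 were listed at 0 in all libraries and 0 reached 600 counts. The 6 of cluster A were higher in the CD34-expressing libraries without overlap, as were 9.99% of the 41212 genes with at least 1 count. *HOTAIRM1*, linked to myeloid maturation, was 0.956 to 1.90 normalized CPM there and 0 elsewhere. *HOXA11-AS* was 0.956 to 1.24 against at most 0.0331. *HOXA-AS2* was 0.319 to 0.999, *HOTTIP*, from beyond *HOXA13*, 0.214 to 0.551, *HOXA-AS3* 0.171 to 0.283 and *HOXA10-AS* 0.0893 to 0.238, each with 0 counts in the other libraries. *HOTAIR* of cluster C was listed at 0 throughout. Since strand use is not stated, counts of an antisense RNA and of its *HOX* partner cannot be told apart where their exons overlap.

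Of the genes beside the clusters, the 5 with at least 600 counts were detected in all 12 libraries. *SKAP2*, an adaptor gene on the 3′ side of cluster A, was 48.5 to 59.1 normalized CPM in the CD34-expressing libraries and 17.1 to 22.9 in the others, while *EVX1*, the homeobox gene beyond *HOXA13*, had 3 counts in all. Beside *HOXD13*, *EVX2* was listed at 0 in all libraries, and *LNPK*, which shapes the endoplasmic reticulum, was 81.4 to 97.4 against 38.6 to 50.9. *MTX2*, at the *HOXD1* end, overlapped at 41.4 to 57.9 and 40.4 to 55.5. *SKAP1*, *PRAC1* and *PRAC2* beside cluster B had 7 to 15 counts each in all, and *TTLL6* was 0 in the CD34-expressing libraries and 0.105 to 0.422 normalized CPM in the others. *CALCOCO1* and *SMUG1* beside the silent cluster C were expressed, at 13.7 to 30.1 and 5.20 to 10.4 normalized CPM over the 12 libraries, and their groups overlapped, except that *SMUG1* in deposited CPM was lower in the CD34-expressing libraries without overlap.

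**Figure D5:**
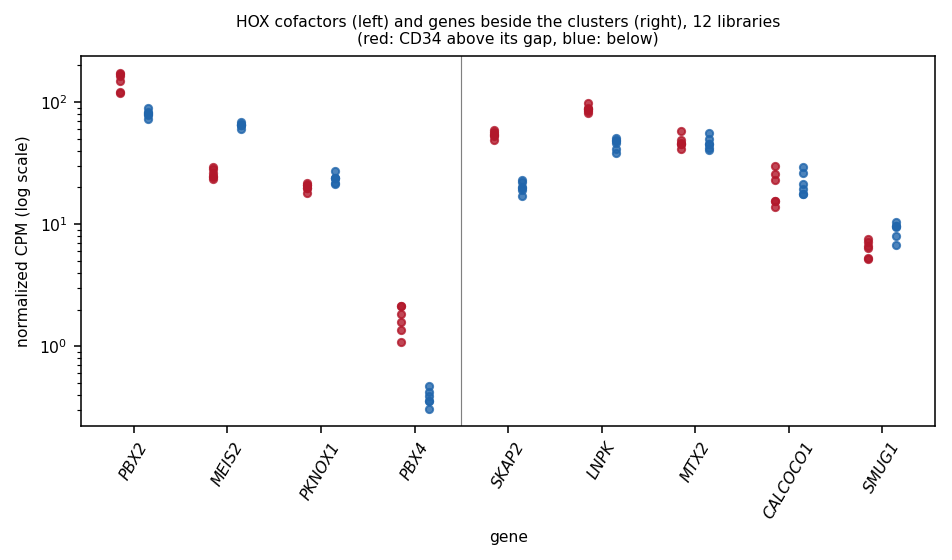
Normalized CPM (vertical axis, log scale) of the 4 detected cofactor genes (left) and of 5 genes beside the clusters (right), with 1 point per library, red for the 6 CD34-expressing and blue for the other 6 libraries. *PBX2*, *PBX4*, *SKAP2* and *LNPK* are higher and *MEIS2* is lower in the red libraries without overlap, while *PKNOX1*, *MTX2*, *CALCOCO1* and *SMUG1* overlap on this scale.

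The tables of Kasumi-1 cells recovered from treated mice (4 libraries) listed all 39 *HOX* genes at 0. *ACTB* and *GAPDH*, which every cell uses, were also listed at 0 there, so no *HOX* level was read from them.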

How the data were processed

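The authors trimmed the reads with Trim Galore 0.6.5, aligned them to GRCh38 with STAR 2.7.10a and counted them over the exons of each gene with Subread 1.6.5, whereas the headers of the deposited tables name Rsubread 1.32.4 under R 3.5.1. The deposited in vitro tables hold raw counts and the CPM computed by the authors from the same counts, for 12 libraries. FPKM were not used. The deposited in vivo tables of 4 libraries hold counts in the layout of HTSeq. Groups were taken from the labels.

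edgeR 4.0.16 (R 4.3.3) was used for the counts, with TMM normalization, genes with at least 600 counts in a fit, robust quasi-likelihood fits over all such genes and Benjamini-Hochberg adjustment over all genes tested (threshold 0.05). The filter is that of the study, which used DESeq2. The libraries of a fit were those compared, and the interaction and the line comparison used all 12. No library pair had counts within sampling noise of each other, with at least 26.2 times the chi-square of sampling noise per degree of freedom. Libraries were ordered by the widest gap of *CD34* and then of *RUNX1T1*. The procedure was run on simulated data with a far smaller spread between libraries than in these fits, whose common dispersion was 0.197 to 0.255. The genes changed in the simulation also had far more counts than the members. It therefore does not show how the fits handle the *HOX* genes.

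Alternatives were DESeq2 1.42.0, its size factors in edgeR, no filter, filterByExpr, a block on the replicate number, 1 fit of all 12 libraries, deposited CPM and each library left out. The count of members by *RUNX1T1* in deposited CPM and without a filter was added after seeing the data. The members, lists and reading orders were chosen with earlier results of these data known. By the rule for named genes, members with at least 600 counts were given in every library (1 member and 1 cofactor are not reported here by name), at most 8 with tests, and up to 5 genes of each list by mean level, and the genes beside the clusters. Others named (*HOXA9*, *HOXD12*, *HOTAIR*, *MEIS1*, *EPCAM*, *BMI1*, the *CDX* genes and the like) were chosen after their values were seen. Sequences came from RefSeq. Python 3.11.15 with numpy 2.4.6, pandas 2.3.3 and matplotlib 3.10.9 made the tables and figures. CUT&RUN and ATAC-seq data were not analysed here.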

Additional observations from a re-analysis of the deposited data

How the results depend on the processing

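For siRE-mod against siMM-mod as labelled, edgeR called 0 genes, and DESeq2 called 1163 in Kasumi-1 with 3 *HOX* genes among them and 372 in SKNO-1 with 0. For the difference between the lines DESeq2 called 127 genes with 6 *HOX* genes, and for SKNO-1 against Kasumi-1 it called 272 with 0. With one library left out, the counts ranged from 0 to 4250 in Kasumi-1 (without siMM-mod 3), from 0 to 2535 in SKNO-1 (without siRE-mod 1) and from 0 to 70 between the lines (without SKNO-1 siRE-mod 3), and the *HOX* genes called from 0 to 4 in Kasumi-1 and in SKNO-1. The 4 *HOX* genes called there had passed the filter on libraries labelled siMM-mod alone and so had to be lower. Those called by DESeq2 in Kasumi-1 and for the difference between the lines had passed it on CD34-expressing libraries alone. None of these calls of *HOX* genes gives support. The interaction had 0 calls with any library left out. With one library left out, its log2 value ranged from −0.33 to 11.85 for *HOXD13*, from −0.24 to 10.99 for *HOXA10*, from −0.32 to 10.06 for *HOXA5*, from −0.38 to 10.28 for *HOXA13* and from −0.43 to 8.79 for *HOXA3*, below 0 in each case only where the library labelled SKNO-1 siRE-mod 1 was left out. *HOXA11*, also tested for the interaction, did not go below 0 with any library left out. The cause of these changes was not tested.

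Without a filter, 12 and not 7 *HOX* genes were higher without overlap in the CD34-expressing libraries, since more genes entered. FilterByExpr left 0 *HOX* genes in the Kasumi-1 fit. Size factors of DESeq2, no filter and all 12 libraries in one fit changed no call of the fits as labelled. The replicate block also left 0 calls in either line and for the interaction, with an unadjusted p under 0.05 for 1763, 1133 and 21 genes. The replicate numbers gave no sign of pairing. The correlation of the deviations of same-numbered libraries from their group means was −0.272 to −0.0132 in Kasumi-1 and −0.246 to −0.0213 in SKNO-1. It cannot exclude pairing, because the groups labelled Kasumi-1 siMM-mod and SKNO-1 siRE-mod mix CD34-expressing and other libraries. For SKNO-1 against Kasumi-1 the block could not be fitted, because each block within a line holds 1 line. Depth limits the *HOX* genes listed at 0 to at most 0.0470 normalized CPM in a library, for counting error only.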

Other observations

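Chromatin regulators of the *HOX* clusters were read on the same libraries as a further gene group. Of 24 genes, 21 had at least 600 counts. In normalized CPM, 5 were higher and 2 lower in the CD34-expressing libraries without overlap, against 15.6% and 17.5% of all genes. In deposited CPM 3 were higher and 6 lower, against 11.3% and 21.6% of all genes. *EZH2* and *SUZ12*, subunits of the Polycomb complex PRC2, were higher on both scales, at 160 to 196 against 54.9 to 86.7 normalized CPM and at 175 to 224 against 91.8 to 119. *EED*, another PRC2 subunit, went the other way in normalized CPM, at 27.3 to 33.1 against 34.1 to 52.1 without overlap, and overlapped in deposited CPM. *BMI1*, a subunit of PRC1, was lower on both scales, at 13.7 to 20.7 against 45.1 to 70.9. *CBX7*, also of PRC1, was higher on both, at 0.578 to 1.67 against 0.108 to 0.412. The genes of neither complex thus moved as a set. *KMT2A*, the methyltransferase that keeps *HOX* genes active, overlapped in normalized CPM (169 to 248 and 234 to 401) and was lower without overlap in deposited CPM (144 to 232 against 259 to 437). *PSIP1*, its chromatin partner, did likewise. *JARID2*, which binds PRC2, overlapped at 121 to 138 and 100.2 to 129. *CDX1*, *CDX2* and *CDX4*, homeobox genes that activate *HOX* genes in the embryo, had 8, 6 and 0 counts in all.

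As labelled, no regulator was called by edgeR in Kasumi-1 or SKNO-1, and DESeq2 called 1, the Polycomb gene *CBX8*, in Kasumi-1 (log2 fold change −0.59, DESeq2 adjusted p = 0.0391). *EZH2* had a log2 fold change of −0.86 in both lines (edgeR, SE 0.37, adjusted p = 0.293 in Kasumi-1 and SE 0.40, adjusted p = 0.477 in SKNO-1).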
